A study of Mus musculus with 5375 samples.

Results

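The angiopoietin and Tie receptor genes were followed as a set of 5 genes: the ligands Angpt1 and Angpt2, the receptors Tek (which encodes Tie2) and Tie1, and Ptprb. Ptprb is neither a ligand nor a Tie receptor. It encodes VE-PTP, the endothelial phosphatase that acts on Tie2. The genes were picked by name, with earlier results of these data known, and all 5 were found among the 35308 genes of the endothelial tables and the 35299 genes of the tumour cell tables.

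Endothelial cells (ECs) and tumour cells (TCs) of the lung were sorted one by one out of BALB/c females aged 8 to 12 weeks and sequenced with a modified SMART-Seq2 protocol. The mice had received 4T1-GFP cells, a BALB/c breast cancer line that carries green fluorescent protein and had been loaded with the division dye CellTrace, through the tail vein. ECs (CD45-, PDPN-, LYVE1-, TER119- and CD31+) came from 4 uninjected animals (day 0), 3 animals on day 1.5 and 3 animals on day 3.5 after injection. TCs were sorted on day 1.5 as intravascular or extravascular from the same 4 animals, by whether an anti-H-2Kd antibody injected into the circulation had stained them. On day 3.5 they were sorted as latent (dye kept, 4 animals) or proliferative (dye diluted). Leftover cells that were never injected formed the culture group. The labels give the proliferative cells 4 replicates, but the deposited annotation puts them all under 1 animal name. They therefore entered as 1 library, as did the culture, and any spread between their animals was not measured.

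The angiopoietins are secreted ligands of Tie2. Angpt1 is made mainly by perivascular cells and platelets and keeps the receptor active, which holds vessels quiescent, while Angpt2 is stored in and released from ECs and can block or weakly activate Tie2 depending on the setting. Tie1 has no well-established ligand of its own and modulates Tie2, and VE-PTP dephosphorylates Tie2 and lies at junctions beside VE-cadherin. In the lung this axis is known for its control of vascular leakage.

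The authors kept 2479 ECs, between 180 and 335 per animal, and 1566 TCs, of which 369 were cultured, 237 proliferative and the rest between 69 and 85 per library of 1 gate and 1 animal. The EC animals held 75.6 to 129.5 M estimated reads in all, with a median of 270585 to 390816 reads per EC. The 8 endothelial markers checked, such as Pecam1 and Cdh5, had reads in every EC library and together reached at least 15170 CPM. Although the gate left out LYVE1+ and PDPN+ cells, Lyve1 RNA stood at 261 to 1111 CPM over the EC animals, whereas Prox1 stayed at or below 1.60 CPM. The 4 epithelial markers together reached at least 2308 CPM in every TC library. Per the study's methods TC replicates were pooled by gate during library preparation, so that gate and library pool cannot be told apart.

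Levels are given as CPM (counts scaled to 1e+06 reads), the reads of a gene summed over the kept cells of an animal and divided by all reads of those cells. The second measure is the share of cells with reads, that is with an estimated count above 0. In ECs, Ptprb reached 1770 ± 264 CPM (SD, n = 10 animals) and had reads in 87.3% ± 3.64 of cells. Tie1 reached 501 ± 102 CPM and was read in 72.9% ± 7.88 of cells, and Tek reached 464 ± 82.1 CPM and was read in 59.9% ± 6.41. Angpt2 reached 21.1 ± 12.0 CPM and was read in 10.7% ± 2.95 of ECs. Angpt1 reached 0.287 ± 0.328 CPM, with reads in 43 of 2479 cells.

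Since a long transcript yields more fragments, levels were compared between genes only per kilobase of the longest annotated transcript. On that scale Ptprb stood at 149 ± 22.2 CPM per kb (SD, n = 10), Tie1 at 118 ± 24.0, Tek at 99.8 ± 17.6, Angpt2 at 5.94 ± 3.38 and Angpt1 at 0.0674 ± 0.0771. Neighbours at the top of this order overlapped in their ranges, with Ptprb above Tie1 in 8 of 10 animals and Tie1 above Tek in 7 of 10. Tek exceeded Angpt2, and Angpt2 exceeded Angpt1, in 10 of 10 animals, without overlap.

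On the mouse build GRCm38, Tek (chr4:94739289-94874976, plus strand, 23 exons in its longest transcript) and Tie1 (chr4:118471191-118490061, minus strand, 22 exons) lie on the same chromosome. Ptprb lies at chr10:116275523-116389535 on the plus strand, Angpt1 at chr15:42424723-42676977 and Angpt2 at chr8:18690263-18741562, both on the minus strand. The libraries do not mark strand. Angpt2 lies opposite Mcph1, which stood at 15.9 CPM over all ECs and 38.0 CPM over all TCs, and Angpt1 lies opposite the antisense gene Gm17473, so reads from bases that both strands share cannot be told apart.

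The 250 bases before the RefSeq start of Tek (chr4:94739039-94739288, plus strand) and of Tie1 (chr4:118489850-118490099, minus strand) are shown. No such window was at hand for Angpt1, Angpt2 or Ptprb. Any link between these bases and where the genes were read was not tested. The Tek window lies wholly outside the gene as placed above, while most of the Tie1 window lies inside it, since the RefSeq start of Tie1 falls inside that gene annotation. Capitals mark GGAAG or its complement CTTCC, the core bound by ETS factors, which are widely used at endothelial genes.
Tek: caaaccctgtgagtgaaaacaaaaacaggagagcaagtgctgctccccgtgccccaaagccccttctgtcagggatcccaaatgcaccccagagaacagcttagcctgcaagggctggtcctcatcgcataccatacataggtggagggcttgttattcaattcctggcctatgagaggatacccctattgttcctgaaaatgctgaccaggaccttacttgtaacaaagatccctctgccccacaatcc
Tie1: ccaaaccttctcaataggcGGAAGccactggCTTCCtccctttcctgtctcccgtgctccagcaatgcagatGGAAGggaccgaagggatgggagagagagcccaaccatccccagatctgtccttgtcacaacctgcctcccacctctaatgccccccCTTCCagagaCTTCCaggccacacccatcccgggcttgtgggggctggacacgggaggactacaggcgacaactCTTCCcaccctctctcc
The Tie1 window held 6 matches and the Tek window 0, where 64.1% of 32851 promoter windows of the same length held at least 1. The share of windows with 6 was not counted. Neither window held GATAA, the core of GATA factors (22.6% of all windows, both strands), or ACGTG, the core of hypoxia-inducible factors (16.6%). A match is a description of letters and not of binding.

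The first question was whether the endothelial set changed after TC arrival. In total ECs no member passed the test between any pair of days. Across 17585 genes tested with edgeR's quasi-likelihood test, 0 genes were called on day 1.5 against day 0, on day 3.5 against day 1.5 and on day 3.5 against day 0, a background of 0% each time, with 1386, 772 and 1496 genes at an unadjusted p under 0.05. DESeq2 called 360, 124 and 475 genes, and 0 members. Each day enters a pair of these comparisons, which therefore share animals. Replicates 1 and 2 of day 0 were sorted on the same day as the day 1.5 animals, and replicates 3 and 4 with the day 3.5 animals. Day 1.5 and day 3.5 share no sort day, so in the main fit their difference cannot be told apart from sort day.

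Angpt2, the ligand that ECs make, stood at 4.29, 19.8, 21.9 and 42.1 CPM in the 4 animals of day 0, at 37.8, 22.6 and 23.1 CPM on day 1.5 and at 17.3, 17.5 and 4.94 CPM on day 3.5. All 3 animals of day 3.5 lay below all 3 of day 1.5, while both days overlapped day 0. The share of all genes whose ranges separate alike was not counted, here or for later gaps between groups. The log2 fold change of day 3.5 against day 1.5 was -1.09 ± 0.79 (SE, 95% interval -2.83 to 0.65, edgeR adjusted p = 1). It was 0.27 ± 0.72 on day 1.5 against day 0 (adjusted p = 0.962) and -0.82 ± 0.74 on day 3.5 against day 0 (adjusted p = 0.817). With the sort day as a term of the fit, estimated from the day 0 animals alone, the difference between day 3.5 and day 1.5 was -2.51. It was not called (edgeR adjusted p = 0.794).

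Angpt2 reads came from few cells. Of 269 ECs with reads, 8 held 50% of all Angpt2 reads, and 34 had at least 100 reads each. In a single animal the strongest cell gave between 24.5% and 75.4% of the animal's Angpt2 reads, so that 1 sorted cell can set the level of an animal. The share of ECs with reads was 9.86% ± 2.66 on day 0 (SD, n = 4), 12.5% ± 2.56 on day 1.5 and 10.1% ± 3.89 on day 3.5 (n = 3 each), and the days overlapped.

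Angpt1, the stabilising ligand, was near the limit of these libraries in ECs. The 4 animals of day 0 stood at 0.0662, 1.01, 0.0486 and 0.474 CPM, those of day 1.5 at 0.672, 0.0818 and 0.144 CPM and those of day 3.5 at 0.084, 0.0684 and 0.219 CPM, with full overlap. The fitted log2 fold changes were -0.47 ± 1.16 on day 1.5 and -1.74 ± 1.22 on day 3.5 against day 0 (SE, edgeR adjusted p = 0.956 and 0.749), and their signs turned under other settings given in the closing section. The summed level of platelet markers in the EC libraries was 0.514 to 5.82 CPM on day 0, 4.97 to 145 CPM on day 1.5 and 4.48 to 76.8 CPM on day 3.5, with overlapping days, and was not tested. Of the 43 ECs with Angpt1 reads, 1 had reads of the platelet gene Pf4 (2.33%, against 2.06% of all kept ECs) and 1 of the platelet gene Ppbp (against 0.565%). Pericyte genes cannot be read in the same way, because the authors had removed ECs with mural genes: Pdgfrb was left in 6 of 2479 kept ECs, 0 of them among the 43, and Cspg4 in 15, 1 of them among the 43.

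Tek, the receptor of both ligands, stood at 555, 525, 511 and 489 CPM on day 0, at 461, 335 and 517 CPM on day 1.5 and at 485, 464 and 303 CPM on day 3.5. The 3 animals of day 3.5 lay below all 4 of day 0, by 0.80-fold in their means. Its log2 fold change was -0.38 ± 0.21 (SE, 95% interval -0.85 to 0.08, edgeR p = 0.0943, adjusted p = 0.656). On day 1.5 against day 0 it was -0.31 ± 0.21 (adjusted p = 0.759). Within the animals sorted on the same day these differences were -0.30 and -0.36.

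The share of ECs with Tek reads moved the other way from the level, from 57.5% ± 4.48 on day 0 to 63.4% ± 7.27 on day 3.5, and the animals overlapped. After each cell was thinned to 100000 reads the shares were 49.8% and 56.0%.

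Tie1, the co-receptor, stood at 357, 573, 528 and 408 CPM on day 0, at 418, 530 and 592 CPM on day 1.5 and at 691, 480 and 430 CPM on day 3.5. The 3 days overlapped, with log2 fold changes between 0.05 and 0.13 (SE 0.23 to 0.25; edgeR adjusted p of at least 0.925). Tie1 had reads in 68.7% ± 9.54 of ECs on day 0 and in 79.3% ± 0.874 on day 3.5, a difference of 10.6 percentage points (exact permutation test, two-sided, p = 0.0857, adjusted over 15 tests 0.75). In cells thinned to 100000 reads the 3 animals of day 3.5 (68.1% to 74.1%) lay above the 4 of day 0 (44.7% to 67.3%), with an exact permutation p of 0.0571, adjusted 0.536. The smallest p that 4 against 3 animals allow is 0.0286, and 3 against 3 cannot go below 0.1.

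Ptprb, the phosphatase, stood at 2000.2, 1691, 2223 and 1820.3 CPM on day 0, at 1449, 1914 and 1469 CPM on day 1.5 and at 1889.6, 1411 and 1832 CPM on day 3.5. The days overlapped, with 2 of the 3 animals of day 1.5 below every animal of day 0. Its log2 fold change was -0.32 ± 0.17 on day 1.5 (SE, 95% interval -0.68 to 0.05, edgeR adjusted p = 0.676) and -0.24 ± 0.16 on day 3.5 (adjusted p = 0.737), both against day 0. Its share of cells with reads was 85.5% ± 5.22 on day 0, 88.3% ± 1.78 on day 1.5 and 88.8% ± 2.04 on day 3.5. Over all 5 members and 3 pairs of days, 0 of 15 share tests passed (exact permutation, adjusted p of at least 0.75).

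**Figure D1:**
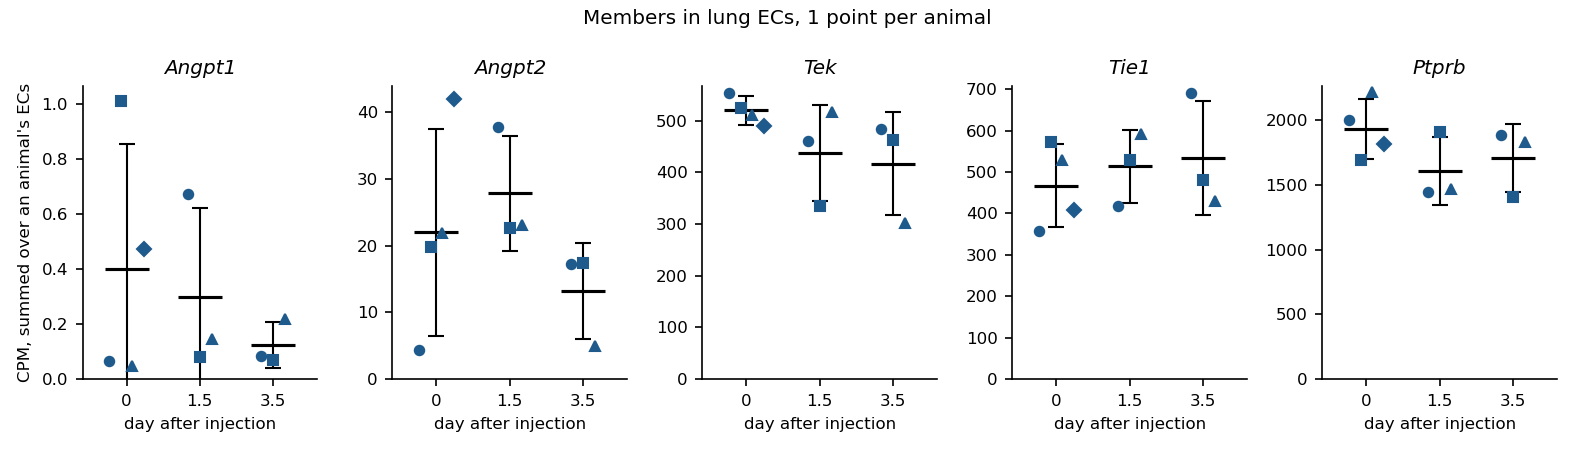
CPM of the 5 members summed over the kept ECs of each animal, by day after injection. Points are animals (circle, square, triangle and diamond for replicates 1 to 4), lines are means and bars SD, cut at 0. The Angpt2 points of day 3.5 lie below those of day 1.5, the Tek points of day 3.5 lie below those of day 0, and the other groups overlap. None of these differences was called, and the share of all genes that separate alike was not counted.

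Of the 68 further genes of the pathway that were listed (ligands, integrins, adaptors and kinases, FOXO factors and targets, junction partners of VE-PTP, proteases, transcription factors and the VEGF family), 61 were tested in total ECs and 0 passed in either direction between any pair of days. The smallest p values on day 1.5 against day 0 belonged to Txnip, a FOXO target that restrains thioredoxin (log2 fold change -1.74 ± 0.29 SE, edgeR adjusted p = 0.351), the lymphangiogenic factor Vegfd (6.35 ± 1.76, adjusted p = 0.485) and the flow-responsive factor Klf2 (0.74 ± 0.24, adjusted p = 0.527). On day 3.5 against day 1.5 they belonged to Txnip (1.26 ± 0.30) and the ETS factors Erg (0.77 ± 0.39) and Fli1 (0.95 ± 0.48), each with an edgeR adjusted p of 1. On day 3.5 against day 0 they belonged to Vegfd (6.30 ± 1.75), Klf2 (0.84 ± 0.24) and the receptor-binding adaptor Grb14 (-0.72 ± 0.33), with edgeR adjusted p of 0.433, 0.433 and 0.586.

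The second question was how the members were spread over the capillary bed. ECs were placed in classes with the study's marker lists: general capillary cells (gCap, 1580 cells, the progenitor-like cells of the alveolar network) and alveolar capillary cells or aerocytes (aCap, 602 cells, the thin cells that line the gas-exchange surface). Tek and Ptprb stand on the gCap list, so their class values are a description without a test. Tek stood at 679 ± 143 CPM in gCap cells against 18.5 ± 37.7 in aCap cells (SD, n = 10), from 405 to 835 CPM (median 672) against 0.476 to 124 CPM (median 4.10), without overlap. Ptprb stood at 2518 ± 515 against 41.2 ± 40.4 CPM, again without overlap (lowest gCap animal 1767, highest aCap animal 116). With classes scored without these 2 genes, the values were 678 against 33.3 CPM for Tek and 2522 against 74.4 CPM for Ptprb, with gCap higher in 10 of 10 animals for both.

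Tie1, which is on no class list, stood at 374 to 760 CPM (median 558) in gCap cells and at 93.2 to 659 CPM (median 354) in aCap cells, with overlapping ranges, and gCap was higher in 10 of 10 animals. The log2 fold change of gCap against aCap was 0.49 ± 0.17 (SE, 95% interval 0.13 to 0.85, edgeR p = 0.0112, adjusted p = 0.0968), which missed the threshold, and the median of all tested genes was 0.25. On the mean CPM per cell with limma it was called (adjusted p = 0.00325). The share of cells with Tie1 reads was 73.0% ± 9.18 in gCap and 72.5% ± 8.44 in aCap cells. For Tek these shares were 73.9% ± 6.76 and 27.3% ± 9.09, and for Ptprb 95.6% ± 1.97 and 64.9% ± 8.86.

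Angpt2 stood at 5.20 to 59.3 CPM (median 27.1) in gCap cells and at 0.102 to 75.5 CPM (median 3.48) in aCap cells, higher in gCap in 9 of 10 animals, with overlap. The exception was replicate 1 of day 1.5, with 75.5 CPM in aCap cells against 28.8 in gCap cells. The log2 fold change was 1.79 ± 0.96 (SE, 95% interval -0.28 to 3.86, edgeR adjusted p = 0.331). In this comparison 0 of the 2 members open to a test were called against 8.55% of 13429 genes (4.24% higher and 4.3% lower in gCap cells), and DESeq2 called Angpt2 (adjusted p = 0.0490). Angpt1 had reads in 30 gCap and 7 aCap cells and was below the filter on low counts. Of the 34 ECs with at least 100 Angpt2 reads, 27 were gCap, 6 aCap and 1 unclassified.

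**Figure D2:**
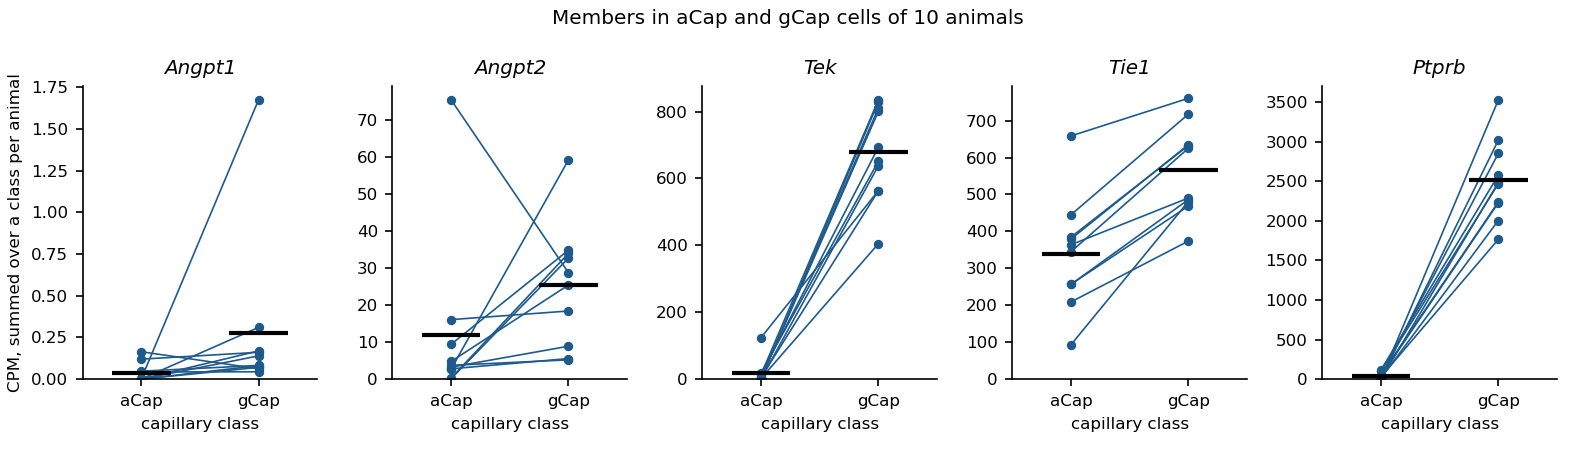
CPM of each member in aCap and gCap cells. Each line joins the classes of 1 of 10 animals and black bars are means. Tek and Ptprb lie far lower in aCap cells in every animal, Tie1 is lower in each animal but overlaps between classes, and Angpt2 is lower in aCap cells in 9 of 10 animals.

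Within single cells the receptors were often read together. Reads of Tek, Tie1 and Ptprb occurred together in 1089 of 2479 ECs (43.9%), and none of these 3 genes was read in 84 cells (3.39%). Among gCap cells 55.5% had all 3 and 16.3% had Tie1 without Tek. Among aCap cells 16.4% had all 3 and 51.3% had Tie1 without Tek. Reads of Angpt2 and Angpt1 met in 5 cells, and Angpt2 and Tek in 170. Tek was read in a median of 65.8% of the ECs with Angpt2 reads and 58.7% of those without (higher in 6 of 10 animals), Tie1 in 82.0% and 74.3% (9 of 10) and Ptprb in 93.3% and 88.4% (7 of 10), at a median depth of 394501 and 351480 reads per cell.

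The third comparison set the 2293 ECs of the authors' capillary table against the 186 other kept ECs, which numbered 8 to 34 per animal. Of these others 133 were large-vessel cells by the class scores, and most of the rest scored as gCap, since 1532 of the 1580 gCap cells are in the capillary table. Angpt2 stood at 4.35 to 44.1 CPM (median 22.1) in capillary and at 0.120 to 12.8 CPM (median 1.06) in non-capillary cells, and was higher in capillary cells in 10 of 10 animals, although the ranges overlap. Its log2 fold change was 3.51 ± 1.2 (SE, 95% interval 1.05 to 5.96, edgeR adjusted p = 0.0447), so Angpt2 was 1 of 2 tested members called, beside a background of 17% of 13314 genes (14.8% higher and 2.19% lower in capillary cells). The median log2 fold change of all tested genes was 1.50, and Angpt2 lay 2.01 above it. The call was lost when any of 7 of the 10 animals was left out (adjusted p 0.0649 to 0.0928), with RLE size factors (0.0570) and without the animal as a block (0.0772). It was kept without any of the other 3 animals (lowest adjusted p 0.0323). The share of cells with Angpt2 reads was 10.8% ± 2.92 in capillary and 10.2% ± 6.65 in non-capillary cells, and 17 non-capillary cells had any. Since 8 of 2479 ECs held 50% of all Angpt2 reads, a class of 8 to 34 cells per animal can lack a strong cell by its size. The part of the unequal cell numbers in the count of 10 animals and in the call was not tested.

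Tie1, the other tested member, stood at 337 to 703 CPM (median 502) in capillary and at 123 to 834 CPM (median 534) in non-capillary cells, higher in capillary cells in 5 of 10 animals. Its log2 fold change was -0.38 ± 0.34 (SE, edgeR adjusted p = 0.458), which lay 1.88 below the median of all tested genes. That median was -0.22 without the animal as a block, so this offset and that of Angpt2 depend on the block. As a description, Tek stood at 471 ± 79.4 CPM in capillary and 409 ± 298 CPM in non-capillary cells (SD, n = 10). Ptprb stood at 1694 ± 269 against 2683 ± 1240 CPM, lower in capillary cells in 8 of 10 animals, and was read in 86.8% ± 3.76 against 95.04% ± 5.09 of cells. Both ranges overlap.

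Among the other pathway genes, 6 of 56 tested were higher and 5 lower in gCap than in aCap cells, where 4.24% of all genes tested were higher and 4.3% lower. Higher in gCap cells were the GATA factor Gata3 (log2 fold change 7.89 ± 0.81 SE, edgeR adjusted p = 2.15e-05), the fibronectin receptor chain Itga5 (6.96 ± 0.81), Vegfa (6.57 ± 0.87), Nfatc1 (2.58 ± 0.58) and Foxo1 (2.45 ± 0.60), the factor that Tie2 signalling holds out of the nucleus. Lower were the VEGF co-receptor Nrp1 (-1.80 ± 0.10), the VEGF receptor Kdr (-3.01 ± 0.20), the adaptors Gab1 (-4.82 ± 0.64) and Grb14 (-2.12 ± 0.33) and VE-cadherin, Cdh5 (-0.68 ± 0.11). In capillary against non-capillary cells 5 of 57 were higher, beside 14.8% of all genes, namely Grb14 (7.53 ± 1.28), Gab1 (8.22 ± 1.77), Pik3cb (7.51 ± 1.72), Itgav (5.66 ± 1.30) and Cdh5 (1.57 ± 0.43, close to the median of 1.50 over all tested genes). The lymphatic growth factor Vegfc (-3.83 ± 1.13) and the VEGF receptor Flt1 (-0.68 ± 0.22) were lower there, beside 2.19% of all genes.

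As a description of likeness over the 10 EC animals, the genes whose log2(CPM + 1) followed a member most closely among genes of at least 10 CPM were listed. They were Ryk, Evi5 and Sf3b6 for Tek (Pearson r 0.94 each), Prkaca, Arhgap6 and Mre11a for Tie1 (0.89 to 0.93), Ccdc127, Snx8 and Suz12 for Ptprb (0.86 to 0.90), Btf3l4, Efr3a and Exosc8 for Angpt2 (0.92 to 0.93) and Rab4b, Immp1l and Arl3 for Angpt1 (0.89 to 0.90). These are the highest of about 8787 correlations each, over animals of 3 days that share their libraries.

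The last question was which members the TCs themselves carried. The endothelial receptor and phosphatase were nearly absent: Tek had 13 reads in 8 of 1566 TCs and Ptprb 81.6 reads in 29. In single TC libraries Tek stayed at or below 0.133 CPM and Ptprb at or below 0.407 CPM. Tek was below the filter on low counts, and Ptprb was not called in any TC comparison. Angpt1, Angpt2 and Tie1 were read in 71, 312 and 373 TCs.

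Angpt1 was higher in latent than in extravascular TCs. It stood at 3.57, 2.05, 3.99 and 3.03 CPM in the 4 latent libraries, at 0.0815, 0.395, 0 and 0.447 CPM in the extravascular libraries, at 0.601, 1.55, 2.26 and 0.661 CPM in the intravascular libraries, at 0.152 CPM in culture and at 0.581 CPM in the proliferative library. Every latent library lay above every extravascular one, 13.7-fold in the means (3.16 ± 0.839 against 0.231 ± 0.223 CPM, SD, n = 4 each), whereas latent and intravascular libraries overlapped and were not tested against each other. The log2 fold change of latent against extravascular TCs was 3.59 ± 0.88 (SE, 95% interval 1.68 to 5.50, edgeR adjusted p = 0.0229), so that 1 of 4 tested members was called against a background of 8.58% of 19392 genes (3.55% higher in latent TCs). The call was lost without extravascular replicate 1, latent replicate 1 or latent replicate 3, at log2 fold changes of 3.32, 3.52 and 3.47. The adjusted p ran from 0.0208 to 0.0585 over the 8 libraries left out in turn. Under the 6 other alternatives the log2 fold change ran from 1.68 to 4.395, and all 6 called it.

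Angpt1 reads were found in 29 of the latent TCs, 8.82% ± 3.41 per animal, against 3.14% ± 2.58 of extravascular TCs. In cells thinned to 100000 reads the shares were 7.73% and 1.00%. In extravascular replicate 3, 0 of 69 cells had reads, which allows a share of up to 4.35% by counting error alone. Platelets are a known source of Angpt1, and the summed platelet markers stood at 4.70 to 7.92 CPM in latent and 0.482 to 2.31 CPM in extravascular libraries. The summed leukocyte markers stood at 4.53 to 243.5 and 2.47 to 11.3 CPM, and the fibroblast markers at 1.37 to 16.7 and 1.65 to 4.27 CPM. Platelet markers were read in 9 of the 29 latent TCs with Angpt1 reads (31.0%) and in 16.3% of the other latent TCs, fibroblast markers in 41.4% and 14.3%, pericyte and smooth muscle markers in 10.3% and 8.67%, and leukocyte markers in 20.7% and 26.0%. Among TCs of day 1.5, platelet markers were read in 0 of 10 extravascular TCs with Angpt1 reads (6.42% of the others) and in 1 of 15 intravascular ones (6.67%, and 8.39% of the others). Leukocyte markers were read in 40% of these extravascular TCs (18.6% of the others) and 46.7% of the intravascular ones (25.5%). Fibroblast markers were read in 20% of both (9.46% and 10.3% of the others). Pericyte and smooth muscle markers were read in 0 of the extravascular ones (7.43% of the others) and 20% of the intravascular ones (10%). The part of these markers in the result was not tested.

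Between the fractions of day 1.5, every extravascular library lay below every intravascular one in Angpt1 CPM. The log2 fold change of extravascular against intravascular TCs was -2.51 ± 0.85 (SE, 95% interval -4.34 to -0.67, edgeR p = 0.0114, adjusted p = 0.158) and was not called. In this comparison 0 of the 4 tested members were called against a background of 1.24% of genes, or 241 genes, a count that moved by over 1.5 times without any 1 of the 8 libraries (from 6 without extravascular replicate 4 to 566 without extravascular replicate 1). DESeq2 called it (adjusted p = 0.0214). With the animal as a replicate block, which pairs both fractions of an animal, it was -2.72 (adjusted p = 0.284). Latent against proliferative TCs gave 2.37 ± 1.47 (edgeR adjusted p = 0.997), and in that comparison 0 of 4 members and 0% of genes were called, with 1094 genes at an unadjusted p under 0.05 and 92 called by DESeq2. The proliferative arm of this test is 1 library, which was assumed to vary like the other TC groups.

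Angpt2 stood at 13.5, 5.83, 5.60 and 7.80 CPM in latent TCs, at 3.79, 5.37, 0.994 and 1.68 CPM in extravascular and at 1.39, 2.53, 5.70 and 4.07 CPM in intravascular TCs, with 2.09 CPM in culture and 4.68 CPM in the proliferative library. The latent libraries lay above all extravascular ones, with a log2 fold change of 1.32 ± 0.57 (SE, 95% interval 0.09 to 2.55, edgeR p = 0.0372, adjusted p = 0.184) that was not called. The intravascular and extravascular libraries overlapped (-0.29 ± 0.56, adjusted p = 0.849), and latent against proliferative TCs gave 0.74 ± 0.92 (adjusted p = 1). Angpt2 reads were found in 28.0% ± 3.41 of latent, 16.9% ± 4.53 of extravascular and 19.4% ± 1.68 of intravascular TCs. In ECs, which were sequenced less deeply, 10.7% of cells had reads. With cells of both kinds thinned to 100000 reads the shares were 7.94% of ECs and 19.7%, 9.74% and 12.5% of latent, extravascular and intravascular TCs. The mean level was higher in ECs (21.1 CPM) than in any TC group, but the EC animals (4.29 to 42.1 CPM) overlapped the TC libraries. Of single cells, 34 ECs and 0 TCs held 100 or more Angpt2 reads.

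Tie1 was the receptor that TCs did carry, at a level far under that of ECs. Culture stood at 0.449 CPM, and the libraries from lungs stood at 6.34, 1.92, 5.67 and 13.2 CPM (intravascular), 5.34, 4.04, 5.03 and 3.30 CPM (extravascular), 5.51, 4.64, 8.72 and 4.93 CPM (latent) and 8.29 CPM (proliferative). Culture was the lowest library of all. Intravascular against culture TCs gave a log2 fold change of 3.94 ± 0.96 (SE, 95% interval 1.86 to 6.02, edgeR adjusted p = 0.0335), so 1 of 4 tested members was called against a background of 5.11% (2.51% higher and 2.6% lower). Culture is 1 library, so this call assumes that it varies like the other TC groups, and no spread within culture was measured. The call was lost on the mean CPM per cell with limma (log2 fold change 2.09, adjusted p = 0.0817) and without the cell of most reads in each library (3.74, adjusted p = 0.0855).

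Among cultured TCs 21 of 369 cells had Tie1 reads (5.69%, exact 95% interval 3.56% to 8.57%) and among proliferative TCs 88 of 237 (37.1%, 31.0% to 43.6%). The share was 26.9% ± 6.93 of intravascular, 20.9% ± 4.48 of extravascular and 34.0% ± 1.74 of latent TCs. Culture was also shallower, with a median of 253686 reads per cell. Thinned to 100000 reads, the shares were 3.11% in culture, 14.4% in intravascular and 24.8% in proliferative TCs. Tie1 was not called between the gates, with log2 fold changes of -0.70 ± 0.46 (extravascular against intravascular), 0.28 ± 0.46 (latent against extravascular) and -0.55 ± 0.69 (latent against proliferative; edgeR adjusted p of at least 0.462 in all).

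Lung TCs with Tie1 reads were compared with the others for endothelial genes. Cdh5 was read in 1.99% of the 352 lung TCs with Tie1 reads and 0.592% of the 845 others, Kdr in 1.14% and 0.118%, and Ptprb in 2.84% and 1.42%. Pecam1 was read in 79.5% and 81.3%, Flt1 in 52.3% and 47.7% and Egfl7 in 36.9% and 28.0%. Of the 12 endothelial genes checked, 10 were read in a larger share of the TCs with Tie1 reads, and 11 in a larger share of those with Angpt2 reads than of those without, but 3 in a larger share of those with Angpt1 reads. Lung TCs with Tie1 reads had a median of 640158 reads and the others 545995. Eng was read in 73.0% of the TCs with Tie1 reads and 68.4% of the others, and Cdh5, Kdr and Ptprb in few of either. The part of endothelial reads in the Tie1 level was not tested.

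**Figure D3:**
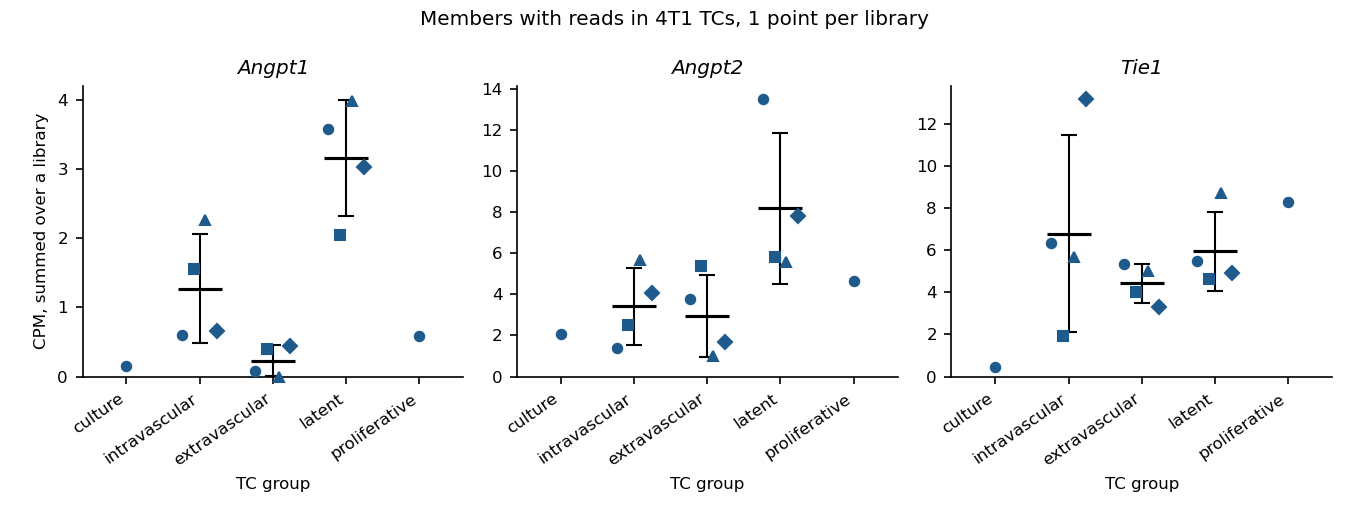
CPM of Angpt1, Angpt2 and Tie1 summed over the TCs of each library, by group. Points are libraries (circle, square, triangle and diamond for replicates 1 to 4), lines are means and bars SD, with culture and proliferative as 1 library each. Latent libraries lie above extravascular ones for Angpt1 and Angpt2, and culture is lowest for Tie1.

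**Figure D4:**
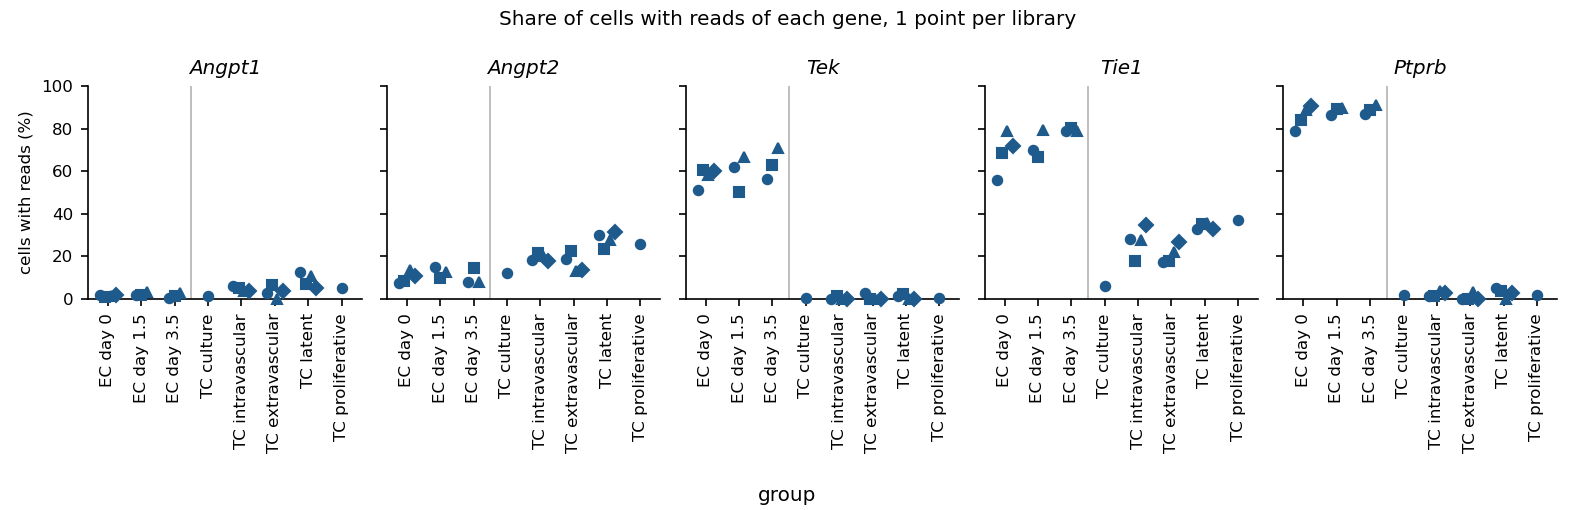
Share of cells with reads of each member in every library, ECs left and TCs right of the grey line. Points are libraries (circle, square, triangle and diamond for replicates 1 to 4). Tek and Ptprb are read in most ECs and in at most 5% of TCs of a library, while Angpt2 and Angpt1 are read in a larger share of latent TCs than of the less deeply sequenced ECs.

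Of the other pathway genes, 65 were tested in TCs. Between latent and extravascular TCs 5 rose and 2 fell, where 3.55% of all genes tested rose and 5.03% fell, and the list was not tested against other genes. Txnip (2.73 ± 0.37, log2 fold change ± SE), the growth-arrest gene Gadd45a (2.06 ± 0.31) and Klf2 (1.51 ± 0.39) of the FOXO list rose, as did the junction protein Jup (0.75 ± 0.18) and Gata3 (0.65 ± 0.18). The integrin chain Itgb1 fell by 1.05 ± 0.09 and the hypoxia factor Hif1a fell by 0.68 ± 0.12. Between extravascular and intravascular TCs 0 of 65 passed, with Hif1a (0.48 ± 0.12, edgeR adjusted p = 0.0622), Txnip (-1.18 ± 0.35) and Itgb1 (0.29 ± 0.09) nearest. Intravascular against culture TCs, Flt1 (2.65 ± 0.40), Txnip (2.62 ± 0.66) and Itgb1 (0.82 ± 0.15) rose and Gadd45a fell by 2.09 ± 0.42, where 2.51% of all genes rose and 2.6% fell, all by the same assumption on the lone culture library. Latent against proliferative TCs, 0 of 65 passed, with Hif1a (-0.75 ± 0.17, edgeR adjusted p = 0.522), the co-receptor Nrp2 (0.87 ± 0.32) and Ets2 (1.04 ± 0.43) nearest.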

How the data were processed

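The authors deposited estimated counts for each gene in each cell. The study's methods refer to the processing given for bulk data, with Salmon on GRCm38, and the submitters' processing notes name Salmon 0.7.2. The annotation release is not given in the sources used here. The authors' filtered tables hold log10 values scaled to a housekeeping panel. Here they gave only the kept cells, the capillary cells and the scores. Their columns of clusters and scores were not used as results. No cell name was repeated within the EC or the TC tables.

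Counts of kept cells were summed per animal and group, rounded and fitted with edgeR 4.0.16 (quasi-likelihood, TMM, filterByExpr; R 4.3.3), with Benjamini-Hochberg adjustment over all genes and calls at 0.05. The EC fit held 10 libraries and the TC fit 14, with culture and proliferative cells as 1 library each. EC classes came from Seurat 5.3.0 module scores with the study's lists and limits. Class comparisons had the animal as a block. The scripts were tested on simulated data. DESeq2 1.42.0 and limma 3.58.1 (on log2 of CPM + 1) were alternatives. Intervals of log2 fold changes come from the edgeR fits and include the spread between libraries. The exact intervals and upper limits of shares in single libraries cover counting error only.

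Members, pathway lists and rules were chosen with earlier results of these data known. The text names the 5 members, pathway genes called in a comparison (at most 10, by p) or else the 3 with the smallest p, and the 3 genes most correlated with each member. Day-of-sort alternatives were added after seeing the data.

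Intravascular and extravascular libraries of 1 number come from 1 animal. Their deviations from the group means correlated at 0.249, 0.0757, 0.0661 and -0.0363. EC animals differ between days, and their numbers pair nothing (-0.0628 to 0.0593).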

Additional observations from a re-analysis of the deposited data

Results flagged for a closer look

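Among the values of the 5 members in groups of 4 libraries, and in the EC classes over 10 animals, 13 of 80 sets of values held a library that stood apart from the rest by Dixon's criterion. Chance meets it in about 1 of 20 sets of independent, normally spread values. The sets here share cells, and some hold 0 in all libraries but 1, so that rate does not apply to the count. In capillary ECs, replicate 2 of day 0 held 1.09 CPM of Angpt1, and its gCap cells 1.67 CPM, where the next animals held 0.225 and 0.31. Non-capillary ECs of day 3.5 replicate 2 held 12.8 CPM of Angpt2, above the next animal at 5.49. In aCap cells, replicate 1 of day 1.5 held 75.5 CPM of Angpt2 and 124 CPM of Tek, where the next animals held 16.1 and 18.8. Replicate 1 of day 0 was low for the share of cells with reads, at 50% of gCap cells for Tie1 and 43.9% of aCap cells for Ptprb.

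The other flags came from a few reads in TCs. Tek was read in 1 extravascular library only, replicate 1 (0.0543 CPM, 2.67% of cells), and in 1 intravascular library only, replicate 2 (0.051 CPM, 1.27% of cells). Ptprb was read in extravascular replicate 3 (0.0895 CPM, 2.90% of cells) and in none of the other 3 extravascular libraries.

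Angpt1 also appeared in cells outside the comparisons of the report, which entered only the alternative with every sorted cell. The authors removed sorted ECs that expressed immune, stromal or mural genes. Of the 303 sorted ECs that passed the gene minimum but were not kept, 24 had Angpt1 reads (7.92%), against 43 of the 2479 kept ECs (1.73%). Their Angpt1 level was 12.4, 36.8 and 34.0 CPM on days 0, 1.5 and 3.5, against 0.432, 0.334 and 0.124 CPM in kept ECs. Single cells gave 99.1%, 28.8% and 94.7% of the Angpt1 reads of the cells not kept on these days, so that the levels of days 0 and 3.5 are those of 1 cell each. Pericyte and smooth muscle markers together stood at 1638, 3644 and 446 CPM in these cells and at 14.4, 12.0 and 12.6 CPM in kept ECs. Pdgfrb was read in 7 of the 24 cells with Angpt1 reads, and endothelial Cdh5 in 19 of them.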

How the results depend on the processing

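Counts of called members kept at 0 in all 3 comparisons of EC days and in latent against proliferative TCs, and 0 share tests passed, under every alternative run. Leaving out animals or libraries in turn gave 0 to 1 called member for capillary against non-capillary ECs (1 as reported) and 0 to 1 for latent against extravascular TCs (1 as reported). For capillary against non-capillary ECs the count was 0 with RLE size factors and 0 without the replicate block, the fit in which all genes called fell from 2268 to 959 and their median log2 fold change from 1.50 to -0.22. For gCap against aCap ECs it was 1 with DESeq2 and 1 with limma (0 as reported), for extravascular against intravascular TCs 1 with DESeq2 (0 as reported), and for intravascular against culture TCs 0 with limma and 0 without the cell of most reads in each library (1 as reported).

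With the replicate block, extravascular against intravascular TCs gave -2.72 for Angpt1 (adjusted p = 0.284), -0.35 for Angpt2 and -0.41 for Tie1, and all genes called went from 241 to 25. Among EC days the block changed no call. Proliferative TCs could not be split into 4 libraries or paired with latent ones here, because their columns carry 1 animal name. DESeq2 called 6259, 3080, 1309, 2708 and 1911 genes where edgeR called 2268, 1148, 241, 1664 and 991 (capillary, gCap, extravascular, latent against extravascular, and culture comparisons). Limma called 4829 and 1728 genes in the capillary and gCap comparisons, and without a filter on low counts the capillary comparison called 3440 and the extravascular one 146.

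Most single values of the members kept their direction. Of 274 log2 fold changes with 1 library left out, 14 changed sign, as did 15 of 304 under the other alternatives, 12 of 100 differences in the share of cells with 1 library left out and 6 of 30 under other ways of counting. None of those in EC days was called. The cause of these changes was not tested. In Angpt1 on day 1.5 against day 0 the log2 fold change became 0.12 with limma, 1.39 without the cell of most reads, 1.77 with every sorted cell and 0.12 with the replicate block. On day 3.5 against day 0 it became 0.32 without that cell and 1.29 with every sorted cell, and on day 3.5 against day 1.5 it became 0.18 in capillary cells alone. Tek on day 3.5 against day 1.5 turned to 0.066 with limma and 0.024 with the sort day as a term, Tie1 to -0.073 with limma and Ptprb to -0.062 with the sort day. Tie1 in capillary against non-capillary ECs turned to 0.24 with limma and 0.19 without the cell of most reads. In TCs, Ptprb turned to 0.29 in latent against proliferative cells with every sorted cell and to -1.81 in intravascular against culture cells without the cell of most reads.

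Leaving out 1 library at a time gave log2 ranges across 0. On day 1.5 against day 0 these were -1.87 to 0.55 for Angpt1, -0.047 to 0.84 for Angpt2 and -0.013 to 0.21 for Tie1. On day 3.5 against day 1.5 they were -1.97 to 0.15 for Angpt1, -0.24 to 0.11 for Tek, -0.18 to 0.19 for Tie1 and -0.0028 to 0.22 for Ptprb. On day 3.5 against day 0 the range was -0.083 to 0.26 for Tie1, and for Angpt2 in extravascular against intravascular TCs -0.77 to 0.099.

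Differences in the share of ECs with reads, in percentage points, changed sign at a minimum of 5 reads for Angpt1 (-0.037 on day 1.5 against day 0, 0.064 on day 3.5 against day 1.5), Angpt2 (0.081 on day 3.5 against day 1.5) and Tek (-2.4 on day 1.5 against day 0). With cells thinned to 1 depth they were 0.249 for Angpt1 on day 3.5 against day 1.5 and -1.9 for Tek on day 1.5 against day 0. With 1 animal left out they ran from -1.38 to 6.82 for Tek and -0.9999 to 6.61 for Tie1 on day 1.5 against day 0. On day 3.5 against day 1.5 they ran from -0.87 to 7.34 for Tek and -0.51 to 1.52 for Ptprb, and on day 3.5 against day 0 from -0.55 to 0.62 for Angpt1 and -2.05 to 1.36 for Angpt2.

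Angpt1 in ECs and Tek and Ptprb in TCs rest on few reads (292 over the kept ECs for Angpt1, and 13 and 81.6 over the TCs for Tek and Ptprb).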

Other observations

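The members were also summed over the cells of the smaller EC classes. The 133 large-vessel ECs held 2478 CPM of Ptprb, 490 CPM of Tie1, 311 CPM of Tek, 2.83 CPM of Angpt2 and 2.18 CPM of Angpt1. In them 1 cell gave 65.8% of the Angpt1 reads and 1 cell gave 58.4% of the Angpt2 reads. The 24 cycling ECs, from 6 animals, held 1404 CPM of Ptprb, 383 CPM of Tie1, 243 CPM of Tek and 11.4 CPM of Angpt2, with 0 reads of Angpt1, and 1 cell gave 46.5% of their Tek reads and 1 cell 50.8% of their Angpt2 reads. These are sums without a test, and the cycling class rests on few cells.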
